A study of Sus scrofa with 24 samples.

Results

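The venous anastomosis is the join between a haemodialysis graft and a vein, and the comparison described here is that of day 14 with day 5 after graft placement at this site in pigs. Its members are the 8 samples labelled as anastomosis, 4 of day 5 and 4 of day 14 (replicates 1 to 4 of each day), out of 24 samples in the series; they were taken by their labels and by their dye, Cy5. The other 16 samples are 8 of the vein downstream of the join in Cy5 and 8 of the external jugular vein, the control, in Cy3, at the same days. All samples are total RNA, the control included, from a pig model of narrowing in a graft that links an artery to a vein. No strain, sex or age is given in the labels. The 4 replicate numbers stand for independent experiments on different biological replicates; whether the day 5 and day 14 samples of a number share an animal is not stated.

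Blood from the artery reaches the vein through the graft at far higher pressure and flow than a vein normally carries. Injury and flow are known to set off inflammation and cell division in the vein wall, followed by deposition of matrix and growth of the inner layer, which is called neointimal hyperplasia and can close the graft. Early and later times after placement therefore allow dividing, inflammatory and matrix-forming states of the wall to be compared.

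Expression was measured as fluorescence on pig arrays with 43603 different probes, and every value below is a normalised log2 intensity unless said otherwise, so that a difference of 1 is a 2-fold change. A level of one probe cannot be set against that of another. Vein wall genes were measured in these samples: the probes for smooth muscle actin (ACTA2), smooth muscle myosin (MYH11), the endothelial genes PECAM1, CDH5 and VWF, collagen COL1A1 and the leukocyte gene PTPRC were well above background on 8 of 8 arrays. The share of probes well above background was 64.4%, 62.9%, 71.3% and 79.0% in replicates 1 to 4 of day 5 and 71.3%, 73.9%, 77.8% and 78.7% in those of day 14. It was higher at day 14 in replicates 1 to 3 and nearly equal in replicate 4; its part in the results was not tested. Both days of replicate 4 lay on 1 slide and in 1 scan, and both days of replicate 3 in 1 scan, while the days of replicates 1 and 2 were scanned apart.

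The first principal component of the 8 samples held 39.0% of the variance and set replicates 1 and 2, quantified with an earlier version of the scanner protocol, apart from replicates 3 and 4. The second held 21.2% and ordered the samples mainly by day, but replicate 4 of day 14 lay on the side of day 5.

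**Figure D1:**
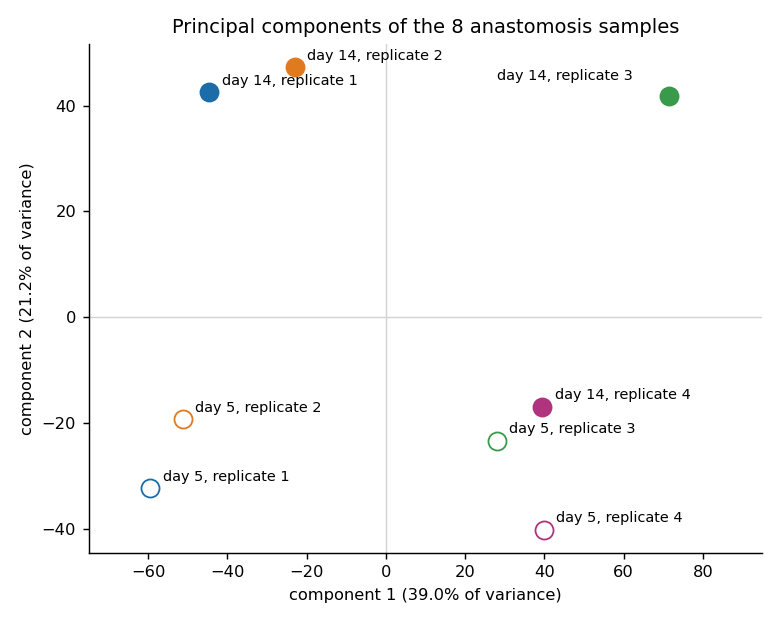
Position of the 8 anastomosis samples on the first 2 principal components of the tested features, with the percentage of variance on each axis; open points are day 5, filled points day 14, and colours are replicate numbers. Replicates 1 and 2 lie left and 3 and 4 right, and replicate 4 of day 14 lies at -16.84 on component 2 while the other 3 samples of day 14 lie between 41.84 and 47.26.

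Of 33285 features tested, which are probes without a gene name and 1 probe for each of 5998 named genes, 2 (0.00601%) passed an adjusted p of 0.05 in limma with Benjamini-Hochberg adjustment: 1 was higher at day 14 (0.00300% of features) and 1 was lower (0.00300%). At an unadjusted p under 0.05 there were 2747 (8.25%), 1438 of them higher (4.32%) and 1309 lower (3.93%). With the replicate number as a block, 7 features passed, all higher (0.0210%), and 1 of them had also passed without it. The count of 2 became 0 on leaving out replicate 1, 2 or 3 of day 5, replicate 3 of day 14 or any 1 number on both days, 1 without replicate 2 of day 14, and was 2 without each of the other 3 samples, where only 1 of the 2 was a feature called with all samples. Without a threshold on p, 435 features were at least 2-fold higher (1.31%) and 242 at least 2-fold lower (0.727%), and the 4 samples of day 14 lay above the 4 of day 5 in 780 features (2.34%) and below them in 770 (2.31%). The split at an unadjusted p under 0.05 depended on the scaling, with 1348 higher and 602 lower when the red channel alone was set to equal medians, and 1223 and 787 with the scanner's processed signal. Apart from these 2 features and the antibody probes below, every gene described missed the adjusted threshold with and without the block, and its values are given as a description.

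The feature that rose was a transcript with no gene name, represented by an expressed sequence tag (probe A_72_P415788, named here after its values were seen). Its level was 6.80, 7.11, 7.29 and 7.41 in replicates 1 to 4 of day 5 and 10.58, 11.38, 10.91 and 10.19 in those of day 14. The groups lay far apart, and replicate 4 showed the smallest step, 2.78, within 1 slide. The difference was 3.61 ± 0.26 (SE, n = 4 per day), a 12.2-fold rise, with an adjusted p of 0.0114, and of 0.0395 with the replicate block. Leaving out 1 sample gave adjusted p-values of 0.0128 to 0.0899, with 4 of 8 past the threshold. Downstream the difference between days was 1.74 and in the jugular control -0.22.

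CCBE1 fell. It encodes a secreted protein needed for the growth of lymphatic vessels, where it helps to activate the growth factor VEGFC. The level was 12.03, 11.55, 11.83 and 12.01 at day 5 and 10.38, 10.38, 10.19 and 10.20 at day 14. All 4 samples of day 14 lay close together and below every sample of day 5, and the step in replicate 4, within a slide, was -1.81. The difference was -1.57 ± 0.14 (SE), 2.96-fold, with an adjusted p of 0.0433; with the replicate block the adjusted p was 0.0919, past the threshold no longer. The difference was -1.51 to -1.67 on leaving out any 1 of the 8 samples, and none of these 8 fits passed (adjusted p 0.0564 to 0.257). It also missed the threshold without background correction (0.0579), with quantile scaling or equal medians of the red channel (0.0668 and 0.271), with median centring (0.109), with the processed signal (0.274) and with the filter over the 8 samples (0.0518). The downstream vein gave -1.50 and the jugular control -0.52.

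The lymphatic list, which holds endothelial markers and the secreted protein CCBE1, had 4 tested members of 7. Of these, 2 were higher at day 14 and CCBE1 and RELN were lower. CCL21, a chemokine that lymphatic vessels secrete to draw in dendritic cells and lymphocytes, stood at 6.23, 6.34, 7.52 and 6.39 at day 5 and 8.79, 9.42, 10.56 and 10.98 at day 14. The day 5 values were low, with the probe well above background on 2 of 4 arrays, and the groups did not overlap. The difference of 3.32 ± 0.50 (SE) had an adjusted p of 0.188, and of 0.0919 with the block; downstream it was 0.63 and in the jugular control 0.01. PROX1, the transcription factor that specifies lymphatic endothelium, was named after its values were seen: it was 6.34 to 6.82 at day 5 and 7.46 to 8.81 at day 14, a difference of 1.41 with an adjusted p of 0.245. RELN, the remaining member and likewise named afterwards, differed by -0.16.

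The 6 other features that passed with the replicate block were probes described on the array as the heavy chain of IgG or its constant region. IgG is an antibody class secreted by plasma cells after class switching. The description of IgG probe 5 names a constant region. Those of the others that passed do not say whether the probe lies in a constant or a variable part. Whether each probe reads IgG alone was not tested. On the array 10 probes carry this description, and they were grouped after their values had been seen, so they get no test as a group; they also share a target. The 6 that passed are printed below, 5′ to 3′, with the 1 probe of the 10 that was not higher (IgG probe 10, -0.03). Probes are numbered by the size of their difference, and capitals mark the longest run of bases, 20 or more, that a probe shares with another of the 10.
IgG probe 1: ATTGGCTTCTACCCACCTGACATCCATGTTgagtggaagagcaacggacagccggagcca
IgG probe 3: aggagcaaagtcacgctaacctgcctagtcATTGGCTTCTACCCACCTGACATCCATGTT
IgG probe 5: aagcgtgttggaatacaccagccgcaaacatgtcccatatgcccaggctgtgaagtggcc
IgG probe 7: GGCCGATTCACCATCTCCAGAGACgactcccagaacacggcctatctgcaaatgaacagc
IgG probe 8: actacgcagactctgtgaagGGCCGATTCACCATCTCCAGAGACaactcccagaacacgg
IgG probe 9: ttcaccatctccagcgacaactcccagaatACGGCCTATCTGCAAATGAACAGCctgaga
IgG probe 10: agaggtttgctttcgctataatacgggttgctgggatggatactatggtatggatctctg

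Probes 1 and 3 overlap by 30 bases, and probes 7, 8 and 9 share runs of 24 bases, so these sets are not independent readings. IgG probe 5, for the IgG1b chain, shares no such run with another. Its level was 8.33, 7.24, 7.64 and 7.71 at day 5 and 10.12, 9.62, 9.65 and 9.86 at day 14, a difference of 2.08 ± 0.23 (SE) with an adjusted p of 0.0711 and, with the block, 0.0395. For IgG probe 1 the 4 levels of day 5 were 10.63, 8.89, 10.11 and 10.39 and those of day 14 were 14.03, 11.77, 12.81 and 12.80. Replicate 2 was the lowest on both days, and the step between days was 2.42 to 3.40 in each number. The adjusted p was 0.232 without the block and 0.0395 with it.

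Over the 10 probes the median difference was 2.01, with 9 higher, values from -0.03 to 2.85, and 7 higher without overlap between days, where 2.34% of all features were. The median was 2.35, 2.21, 1.91 and 2.08 in replicates 1 to 4. In the downstream vein it was 2.72 and in the jugular control 0.66, and 0 of the 10 were higher without overlap at either of these sites, against 1.25% and 0.529% of all features. A further 26 probes, described as single antibody clones or variable regions, had a median difference of 0.01. Their levels were near the floor of the array (median 6.36 at day 5). The sets were split by these descriptions, not by sequence. CD79A, a part of the B cell receptor, gave no parallel: it differed by -0.04 and was near the floor. Genes marking lymph node tissue, 7 tested of 11, CCL21 among them, had a summed level of 11.81 to 13.45 at day 5 and 12.63 to 13.33 at day 14. At an unadjusted p under 0.05, 3 of them were higher and 0 lower, against 4.32% and 3.93% of all features. The part of lymph node tissue in the antibody signal was not tested.

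**Figure D2:**
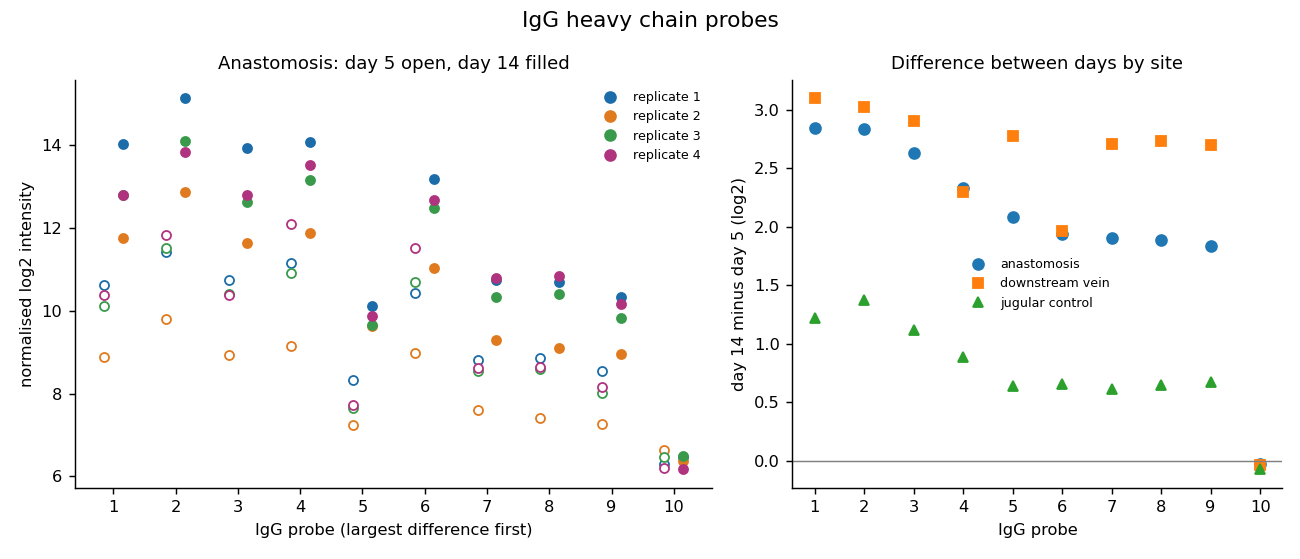
Left, normalised log2 intensity of the 10 IgG heavy chain probes in each anastomosis sample, open points for day 5 and filled for day 14, coloured by replicate number; right, the difference of day 14 from day 5 for each probe at the 3 vein sites. Probes 1 to 9 lie higher at day 14 in every replicate number, by 1.83 to 2.85 at the anastomosis, and probe 10 lies at -0.03.

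Genes of cell division made up the most uniform group at the lower side. The cell cycle list, of genes for mitotic cyclins, kinases, kinesins and checkpoint proteins, had 27 tested members of 36, and 25 of them were lower at day 14 in all 4 replicate numbers. At an unadjusted p under 0.05 there were 23 lower and 0 higher, against 3.93% lower among all features. In 19 of 27 day 14 was lower without overlap, as in 2.31% of all features. With or without the block, 0 passed the adjusted threshold. The median difference was -1.51 (0.01 over all features). By number it was -1.15, -1.77, -2.15 and -0.61, so replicate 4, the sample that lay among those of day 5 on the second component, moved least; without replicate 4 the median was -1.74 and without replicate 3 it was -1.19. Fewer dividing cells and less RNA per dividing cell cannot be told apart in such samples of whole tissue, here and in every group below.

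The mitotic cyclin CCNB1 was at 12.37, 12.14, 12.14 and 12.14 at day 5. At day 14 it was 10.71, 9.81, 9.16 and 11.44, so that a tight group became a spread one, still wholly lower. The difference was -1.92 ± 0.43 (SE), with an adjusted p of 0.308, and a second probe gave -1.97. Its partner kinase CDK1 went from 12.69, 12.43, 11.75 and 11.97 to 10.95, 10.05, 9.05 and 11.36, a difference of -1.86 with an adjusted p of 0.366. BIRC5 (survivin, of the chromosomal passenger complex) differed by -1.80, DLGAP5 (a spindle protein) by -1.73, the checkpoint kinase BUB1 by -1.70, AURKA by -1.64 and UBE2C, which works with the anaphase-promoting complex, by -1.61. By unadjusted p the first of the list were KIF11, a spindle motor, at -1.08 ± 0.19 (adjusted p 0.225), and the topoisomerase TOP2A at -1.51 ± 0.34 (adjusted p 0.308). PRC1, named after its values were seen, was the only member of the 27 above 0, at 0.29.

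Of the 29 DNA replication genes listed, 14 were tested, 14 had a difference below 0 and 11 were lower at an unadjusted p under 0.05, against 3.93% of all features; the median was -0.90, and -0.77, -1.43, -1.27 and -0.25 in replicates 1 to 4. The count of 11 became 4 without replicate 2 and 6 without replicate 3 on both days, and 7 without replicate 1 or 2 of day 5 or replicate 2 or 3 of day 14. RRM2, the regulated subunit of ribonucleotide reductase, was 12.54, 12.07, 11.99 and 11.65 at day 5 and 11.30, 9.59, 8.77 and 11.17 at day 14 (difference -1.86 ± 0.55, adjusted p 0.417). ORC1, of the origin recognition complex, differed by -1.65 (adjusted p 0.376) and the helicase subunit MCM6 by -0.75 (adjusted p 0.408).

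Downstream of the join the medians of the 2 lists were -1.18 and -0.48. By number they were 0.16, -1.89, -0.96 and -2.08 for cell cycle and 0.14, -0.98, -0.32 and -0.93 for DNA replication, so replicate 1 went the other way in both, and only 1 member of each was without overlap there, where 1.25% of all features were higher without overlap and 1.08% lower. In the jugular control the medians were 0.54 and 0.13. By number they were 0.95, -0.37, -0.03 and 1.12 for cell cycle. For DNA replication they were 0.87, -0.22, -0.41 and 0.37. The change at the anastomosis minus that in the control was at an unadjusted p under 0.05 for 23 of 27 cell cycle genes, against 8.33% of all features, and for 0 of them at an adjusted p of 0.05. Minus the change downstream, it was at an unadjusted p under 0.05 for 0 of 27, against 4.15% of all features.

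**Figure D3:**
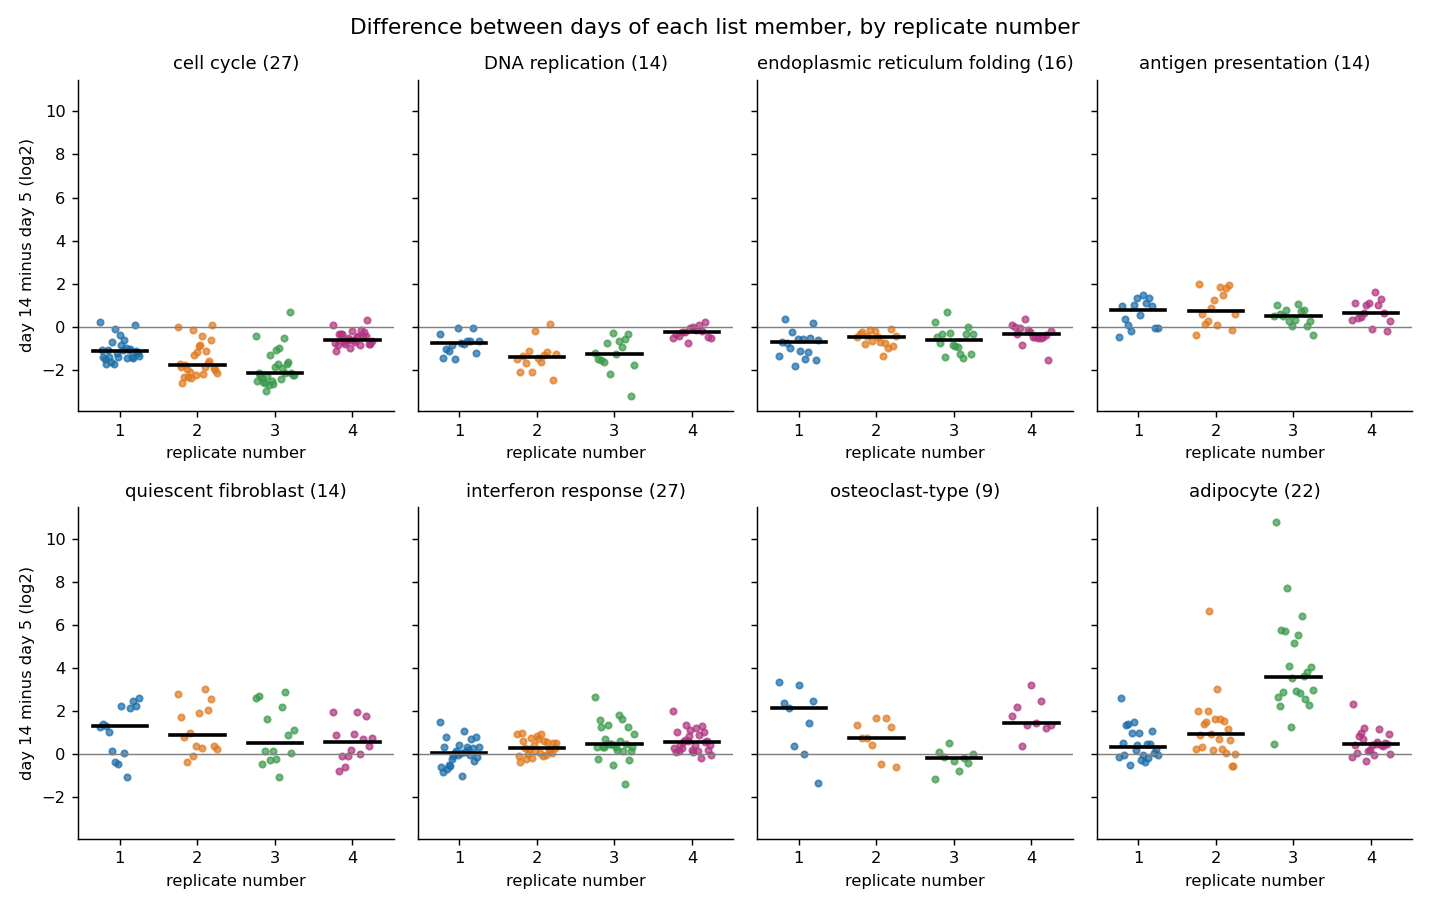
Day 14 minus day 5 (log2) for every tested member of 8 gene lists, in separate columns for replicate numbers 1 to 4; each point is a gene and the bar is the median. Cell cycle medians run from -0.61 in replicate 4 to -2.15 in replicate 3, and the adipocyte median of replicate 3, 3.59, stands apart from 0.34 to 0.93 in the others.

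Cytokines and chemokines went both ways. Of 32 listed, 24 were tested, and the median was -0.23. At an unadjusted p under 0.05 there were 5 higher and 5 lower, against 4.32% and 3.93% of all features. CCL20, which attracts immature dendritic cells and T cells through CCR6, was 11.28, 9.90, 12.31 and 8.73 at day 5 and 6.83, 6.74, 6.75 and 7.82 at day 14. In day 14, 3 samples were near the floor and every one was below day 5. The difference was -3.52 ± 0.70 (SE), 11.5-fold, with an adjusted p of 0.256. IL6, the cytokine of the acute phase response, went from 16.21, 16.23, 16.13 and 14.21 to 13.43, 13.36, 14.07 and 13.47. The step was -2.05 to -2.87 in replicates 1 to 3 and -0.73 in replicate 4, whose day 5 value was already low; the difference was -2.11 ± 0.45, with an adjusted p of 0.290. PTGS2, the inducible cyclooxygenase, was 14.11, 13.93, 14.19 and 12.95 at day 5 and 12.31, 12.70, 12.15 and 10.66 at day 14, a difference of -1.84 with an adjusted p of 0.345 (0.0919 with the block).

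CXCL9, a ligand of CXCR3 on activated T cells, stood at 6.86, 6.60, 6.61 and 7.54 at day 5 and 8.82, 9.17, 9.92 and 8.34 at day 14. The difference was 2.16 ± 0.35 (adjusted p 0.192), although a second, dimmer probe gave 0.16. CXCL10, a ligand of the same receptor, differed by 1.78 ± 0.38 (adjusted p 0.286), and CXCL16, made by macrophages and endothelium, by 1.09 ± 0.21 (adjusted p 0.238).

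**Figure D4:**
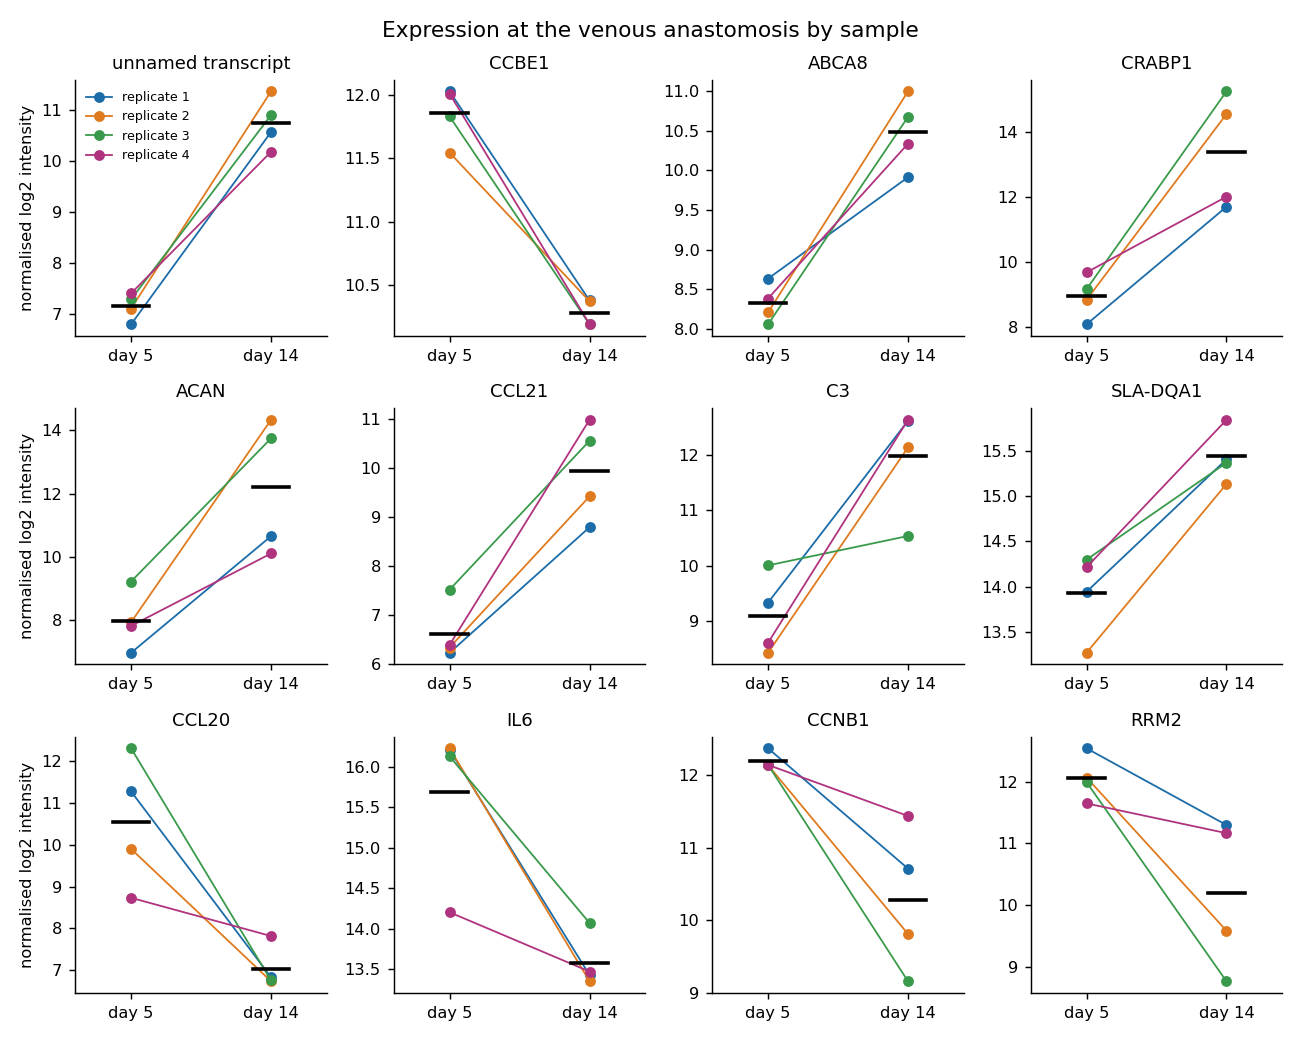
Normalised log2 intensity of 12 features in the anastomosis samples, with a line joining day 5 and day 14 of each replicate number and a black bar at each mean; the vertical scale differs between panels. The days do not overlap in any panel, and only the unnamed transcript and CCBE1 passed the adjusted threshold; in CCNB1 and RRM2 the line of replicate 4 is the flattest.

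The antigen presentation genes nearest the threshold were SLA-DQA1 and SLA-DRA, chains of the MHC class II molecules that present peptides to helper T cells. SLA-DQA1 was 13.94, 13.27, 14.30 and 14.21 at day 5 and 15.40, 15.13, 15.37 and 15.84 at day 14. Every sample of day 14 was above every one of day 5, with steps of 1.07 to 1.86; the difference was 1.504 ± 0.25 (adjusted p 0.205, and 0.0919 with the block). SLA-DRA gave 14.48, 13.63, 14.76 and 14.63 and then 15.80, 15.43, 15.54 and 15.90, a difference of 1.29 ± 0.25 (adjusted p 0.256). Of the 16 antigen presentation genes 14 were tested, 12 were above 0, 9 of them in all 4 numbers, 7 were higher and 0 lower at an unadjusted p under 0.05 (4.32% higher among all features), and 0 passed the adjusted threshold. The median was 0.63 and lay between 0.48 and 0.76 in the 4 numbers; without replicate 2 on both days it was 0.50 and the count of 7 became 4. It was 0.31 downstream and 0.08 in the control. These genes belong to polymorphic families, so probes may read more than one locus.

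Interferon-stimulated genes had a smaller median, 0.30, over 27 tested of 32, with 9 higher (4.32% of all features) and 0 lower at an unadjusted p under 0.05. The count of 9 became 4 without replicate 3 and 5 without replicate 4, and the median was 0.46 without replicate 1 of day 14. GBP1, an interferon-induced GTPase, went from 11.05, 10.65, 10.43 and 10.38 to 11.38, 11.62, 12.05 and 11.44, a difference of 0.99 ± 0.21 (adjusted p 0.270). The median was like that of the other sites, 0.38 downstream and 0.29 in the control.

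CRABP1 and a few matrix genes of a cartilage type had large differences. CRABP1, a cytosolic carrier of retinoic acid found in some fibroblast populations, was 8.08, 8.83, 9.16 and 9.67 at day 5. It was 11.69, 14.55, 15.24 and 12.01 at day 14, with replicates 2 and 3 above 1 and 4; the difference was 4.44 ± 0.81 (SE), 21.7-fold, with an adjusted p of 0.232, and a second probe gave 1.18. ACAN, aggrecan, the large proteoglycan of cartilage, went from 6.96, 7.93, 9.22 and 7.81 to 10.65, 14.34, 13.75 and 10.11. The difference was 4.23 ± 0.98, 18.8-fold, with an adjusted p of 0.309, but 2 other, dimmer probes of the gene gave 1.14 and 0.12. COL11A1, a minor fibrillar collagen chain, differed by 2.20 ± 0.57 (adjusted p 0.370; second probe 1.35), and CILP, a protein of cartilage and of fibroblasts, by 1.19 ± 0.29 (adjusted p 0.325).

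THBS4, a matricellular thrombospondin, was 12.10, 13.63, 13.25 and 13.58 at day 5 and 14.98, 16.50, 17.12 and 14.35 at day 14. Its steps were 2.87 to 3.87 in replicates 1 to 3 and 0.77 in replicate 4, and the difference was 2.60 ± 0.63 (adjusted p 0.328). The lists around these genes did not shift as wholes. The cartilage and bone type list (15 tested of 25) had a median of 0.19, with 3 higher and 1 lower at an unadjusted p under 0.05. The fibrillar collagen and matrix list (25 tested of 32) had one of 0.13, with 4 higher and 2 lower. Among all features 4.32% were higher and 3.93% lower. COL3A1, the collagen of the reticular network, was 9.32 to 10.05 at day 5 and 8.84 to 9.18 at day 14, a difference of -0.70 ± 0.20 (adjusted p 0.398). COL1A1 differed by -0.55, with overlap.

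For COL11A1 and CRABP1 the change between days was -0.02 and 0.81 downstream and 0.09 and 0.85 in the control. For ACAN it was 1.61 and 1.54, and for THBS4 0.94 and -0.87. The excess at the anastomosis over the downstream vein was fitted in limma over all features. Its unadjusted p was 0.00511 for COL11A1, 0.011 for CRABP1, 0.0417 for ACAN and 0.22 for THBS4, with an adjusted p of 0.984 for each. At an unadjusted p under 0.05 there were 5 of the 28 named genes and 4.15% of all features. The named genes were picked by their difference at the anastomosis, which is a part of this excess.

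Of 20 listed genes of resting adventitial fibroblasts, 14 were tested, 13 were above 0, and 6 were higher (4.32% of all features) and 0 lower at an unadjusted p under 0.05; the median was 0.92, and 1.31, 0.91, 0.54 and 0.56 in replicates 1 to 4. ABCA8, a lipid transporter, was 8.63, 8.21, 8.06 and 8.38 at day 5 and 9.91, 10.997, 10.67 and 10.34 at day 14. It came nearest the threshold of the named genes that missed it, at 2.16 ± 0.24 (SE) with an adjusted p of 0.0711, and 0.120 with the block. SCARA5, a ferritin receptor, went from 9.10, 8.71, 9.76 and 9.98 to 11.58, 11.30, 10.68 and 11.77, a difference of 1.95 ± 0.33 (adjusted p 0.205). NTRK2, the receptor of brain-derived neurotrophic factor, differed by 1.96 ± 0.55 (adjusted p 0.408), but its other 2 probes gave 0.67 and -0.27. The list's median was 0.96 downstream and -0.35 in the control.

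Several complement and clotting genes stood out of a list with a median near 0 (0.11, 29 tested of 34). At an unadjusted p under 0.05 the list had 4 higher and 0 lower, against 4.32% and 3.93% of all features. C3, the central complement protein, was 9.34, 8.43, 10.01 and 8.61 at day 5 and 12.62, 12.14, 10.54 and 12.63 at day 14. The step was 3.28 to 4.02 in 3 numbers and 0.53 in replicate 3, and the difference was 2.89 ± 0.52 (adjusted p 0.232). CFD, the protease of the alternative pathway, secreted by fat cells in particular, differed by 1.47 ± 0.27 (adjusted p 0.238) and clotting factor F5 by 2.11 ± 0.51 (adjusted p 0.328). DUOX2, an oxidase that makes hydrogen peroxide, differed by 2.18 ± 0.44 (adjusted p 0.268), SLC7A10, an amino acid transporter, by 2.04 ± 0.47 (adjusted p 0.309), and TP23 by 1.97 ± 0.53 (adjusted p 0.371). For TP23 the control vein gave a larger value, 4.14.

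Of 23 listed genes for protein folding in the endoplasmic reticulum 16 were tested, 15 were below 0, 12 of them in all 4 numbers, and 9 were lower at an unadjusted p under 0.05 (3.93% among all features); 0 passed the adjusted threshold. The median was -0.53, and -0.72, -0.48, -0.61 and -0.36 by number. SSR1, a subunit of the translocon-associated complex, was 14.35, 13.73, 13.31 and 13.95 at day 5 and 12.81, 12.82, 12.04 and 12.38 at day 14. The groups lay apart, with a difference of -1.32 ± 0.26 (adjusted p 0.256, and 0.0919 with the block). The chaperone HSP90B1 differed by -0.75 ± 0.15 (adjusted p 0.270). LRRC59, a ribosome-binding protein of the same membrane, went from 13.17, 12.24, 11.36 and 11.95 to 11.20, 10.69, 9.07 and 10.73, a difference of -1.76 ± 0.51 (adjusted p 0.411, and 0.0919 with the block).

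The enzymes and chaperones that build collagen, 9 tested of 23, had a median of -0.56. At an unadjusted p under 0.05, 3 were lower, against 3.93% of all features. The count became 1 without replicate 1 of day 5, without replicate 3 of day 14 (median -0.36) and without replicate 1 or 2 on both days. P4HA2, a subunit of prolyl hydroxylase, was 14.65 to 14.82 at day 5 and 13.68 to 14.37 at day 14 (difference -0.73 ± 0.16, adjusted p 0.295). SERPINH1, the collagen chaperone, differed by -1.17 ± 0.44 (adjusted p 0.494).

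Macrophage and osteoclast-type genes differed between numbers. The macrophage list (19 tested of 25) had a median of 0.19, and 0.55, 0.43, -0.25 and 0.71 in replicates 1 to 4, with 5 higher (4.32% of all features) and 0 lower at an unadjusted p under 0.05. The median turned to -0.01 without replicate 4 of day 14 and was 0.46 without replicate 2 and 0.43 without replicate 3 of that day; in the deposited table it was -0.01. On leaving out single samples the count of 5 became 2 at the lowest, without replicate 1 of day 5, and without replicate 2 on both days it was 1. C1QC, a chain of complement C1q made by tissue macrophages, was 11.21, 11.06, 12.03 and 11.98 at day 5 and 11.87, 12.47, 13.02 and 13.03 at day 14, a difference of 1.03 ± 0.33 (adjusted p 0.432). VSIG4, a complement receptor of resident macrophages, differed by 0.53 ± 0.17 (adjusted p 0.428). The summed level of the 19 markers was 16.45 to 17.27 at day 5 and 17.14 to 17.93 at day 14, and 19 of 19 were well above background on all 8 arrays.

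Osteoclast-type genes, which serve cell fusion and the breakdown of mineralised matrix, had a median of 1.14 over 9 tested of 16; it was 2.15, 0.78 and 1.48 in replicates 1, 2 and 4 and -0.17 in replicate 3. ATP6V0D2, a proton pump subunit needed for fusion, was 6.57, 6.58, 6.66 and 6.57 at day 5 and 8.97, 7.33, 6.78 and 8.79 at day 14. Replicates 1 and 4 stood well above the floor at day 14 while replicate 3 was beside it, and the difference of 1.37 ± 0.46 had an adjusted p of 0.445. The cathepsin CTSK differed by 0.69 ± 0.23 (adjusted p 0.446). At an unadjusted p under 0.05, 4 of the 9 were higher, against 4.32% of all features. That count became 1, 2, 6 and 0 without replicates 1, 2, 3 and 4 in turn on both days. Among single samples it became 2 without replicate 1, 2 or 4 of day 5 or replicate 1 of day 14 (median 0.75), and 7 without replicate 3 of day 14. The downstream median was -0.11 and that of the control -0.05.

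Fat cell genes moved most in 1 sample. Of the 22 tested, 11 were higher in all 4 numbers. The list's median was 1.24 downstream and 0.63 in the control. By number it was -0.19, 2.26, 0.13 and 2.23 downstream and -0.15, 3.58, -0.05 and -0.98 in the control. All 22 tested members of 25 were higher at day 14, with a median of 1.32, but it was 3.59 in replicate 3 and 0.34, 0.93 and 0.47 in replicates 1, 2 and 4; without replicate 3 the median was 0.69, and without its day 14 sample 0.47. At an unadjusted p under 0.05 there were 5 higher, against 4.32% of all features. This count became 3 without replicate 2 or 3, 2 without replicate 1, 2 or 3 of day 5, and 9 and 7 without replicate 1 and 3 of day 14. ADIPOQ, the fat cell hormone adiponectin, was 6.37, 6.38, 5.66 and 9.58 at day 5 and 8.99, 8.39, 16.43 and 11.94 at day 14. Replicate 3 of day 14 stood far above the rest, and the difference of 4.44 ± 1.71 (SE) had an adjusted p of 0.514. CEBPA, a transcription factor of fat cells, differed by 1.71 ± 0.47 (adjusted p 0.399) and CIDEC, a lipid droplet protein, by 4.15 ± 1.44 (adjusted p 0.449). The summed level of the list was 15.56 to 16.77 at day 5 and 16.55 to 20.01 at day 14. In the same sample the contractile list was at its lowest against day 5, with a median of -1.10 by number against 0.15 to 0.42 in the others. Skeletal muscle genes, 23 tested, had a summed level of 11.97 to 12.84 at day 5 and 12.19 to 15.46 at day 14. The 15.46 was that of replicate 3, where the member CA3 alone stood at 15.26, while CKM was 7.63 and ACTA1 6.09. The list's median difference was 0.04, and -0.06 in replicate 3. The part of fat or muscle tissue in the results above was not tested; the step of replicate 3 in C3 was the smallest of the 4, and in CCL20 and CRABP1 it was the largest in size.

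The wall's own cell types gave medians near 0. Contractile smooth muscle genes had one of -0.13 (18 tested of 25). At an unadjusted p under 0.05 there were 0 higher and 1 lower, against 4.32% and 3.93% of all features. ACTA2 was 15.95, 16.18, 16.92 and 16.20 at day 5 and 17.25, 17.96, 15.72 and 16.97 at day 14, higher in 3 numbers and lower in replicate 3. Endothelial genes had a median of -0.15 (13 tested of 21). Among them KDR, the main receptor of VEGF, was 10.81 to 11.31 at day 5 and 9.77 to 10.79 at day 14, a difference of -0.69 ± 0.25 (adjusted p 0.480), and PECAM1 differed by -0.15. Reference genes had a median of 0.01 over 12 tested of 14.

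**Figure D5:**
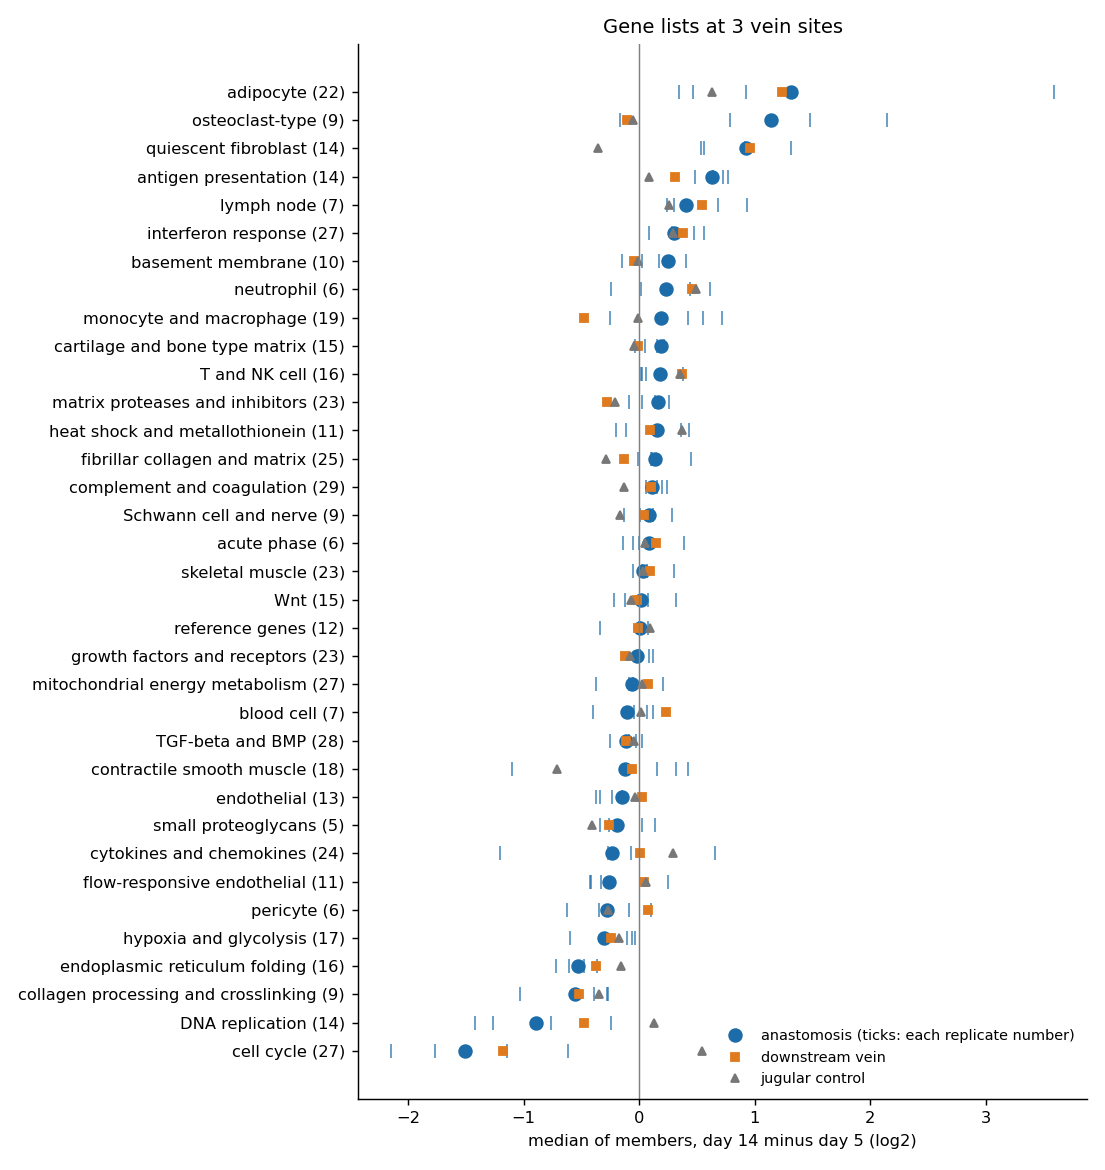
Median day 14 minus day 5 (log2) of the gene lists with at least 5 tested members, whose number is in brackets, at the anastomosis (circles, with a tick for each replicate number), downstream (squares) and in the jugular control (triangles). Cell cycle, DNA replication, collagen processing and endoplasmic reticulum folding lie lowest at the anastomosis; adipocyte, osteoclast-type and quiescent fibroblast lie highest, with wide ticks for the first of these.

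Genes tied to the graft site itself kept no common direction. SPP1, osteopontin, was 15.44, 14.55, 13.71 and 13.31 at day 5 and 16.53, 13.78, 11.80 and 15.78 at day 14, higher in replicates 1 and 4 and lower in 2 and 3. IBSP, bone sialoprotein, stayed near its day 5 level in replicates 1 and 4 (12.82 and 12.63 at day 14) and stood at 7.95 and 7.15 in replicates 2 and 3, after 11.99 and 10.95. ACP5, the acid phosphatase of osteoclasts and macrophages, differed by 1.35 ± 0.61 (adjusted p 0.631), with 14.14 in replicate 3 of day 14 as its lowest value of that day. SAA3, an acute phase protein, was 16.10, 14.06, 12.73 and 12.11 and then 11.56, 11.23, 8.68 and 14.81, lower in 3 numbers and higher in replicate 4 (difference -2.18 ± 1.29, adjusted p 0.762). TNN, tenascin N, differed by 1.45, TMEM158 by 0.63 and CXCL14 by -0.21, with an adjusted p of 0.589 or more for each.

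Whether the days differed more at the join than elsewhere was tested for every feature. At an adjusted p of 0.05 limma called 0 features against the downstream vein (smallest adjusted p 0.984) and 0 against the jugular control (smallest 0.339); at an unadjusted p under 0.05 there were 1380 (4.15%) and 2771 (8.33%). Within the downstream vein and within the control, 0 features passed between days in limma, with 1488 (4.47%) and 641 (1.93%) at an unadjusted p under 0.05. The 14 named genes lower at the anastomosis, CCBE1 included, were lower downstream in 14 of 14 and lower in the control in 3 of 14. Of the 14 higher ones, 13 were higher downstream and 9 in the control. Anastomosis and downstream samples of a number and day shared slide, scan and dye, and the part of these in the common direction was not tested. CCL20 gave -2.22 downstream and 0.35 in the control, CCNB1 -1.73 and 0.83, and C3 1.11 and 0.18. Replicate 2 of the control at day 14 stood apart from the other control samples of that day. Its ADIPOQ level was 17.75 against 8.22 to 9.94, and its MYH11 level 13.60 against 16.59 to 17.49. The part of this sample in the comparisons with the control was not tested.

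The count of features past the threshold depended on the source of the values. In the value table the authors deposited, with no processing stated in the labels or headers, 3054 of 33285 features passed between days (1467 higher and 1587 lower). With the replicate block 487 passed, 244 of them lower. At an unadjusted p under 0.05 in limma there were 27.73% of all features, and 22.08% with the block. Of the 28 named genes 27 passed there, with F5 the exception (adjusted p 0.0549), and 28 of 28 had the same direction. With the block 23 passed there: C3 (0.0872), CCBE1 (0.0600), ABCA8 (0.0504) and SCARA5 (0.0504) missed the threshold too. Among the 27 cell cycle genes 25 passed in these values, all lower, with a median of -2.05, where 1587 of all 33285 features passed as lower. With the block 18 passed, where 244 of all features passed as lower. Samples of the same number deviated from their day's mean in opposite ways in the table (correlations of -0.15 to -0.29 over features) and together in the scanner values (0.40 to 0.50).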

How the data were processed

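Per the file headers, the arrays were quantified with Agilent Feature Extraction 10.5.1.1; the deposited scanner files give linear intensity values, foreground and local background of each spot, without normalisation. The authors also deposited a table of log2 values per sample, with no processing stated in labels or headers. RNA came from a Qiagen RNeasy Micro kit and a 2-colour Quick Amp labelling, per the labels' protocols.

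Both channels were corrected with normexp (offset 50), normalised by loess within arrays and Aquantile between arrays (limma 3.58.1, R 4.3.3), with control spots and outlier spots left out; the log2 value of each sample's own channel was used. Of 43603 probes 9407 (21.6%) had a gene symbol, through names in the files and tables of gene IDs, and the brightest probe stood for a gene. Features that stood well above background in 4 or more of the 24 samples were tested with lmFit and eBayes on the 8 anastomosis samples without a block, two-sided, with Benjamini-Hochberg adjustment over all features. The replicate numbers mark the study's experiments, and same-numbered samples deviated together (correlations 0.50, 0.41, 0.40 and 0.48; each of 8 samples correlated best with its own number), so the blocked value is given where it changes a call. Comparisons with other sites used all 24 samples with a block for each number and day. The fit of day 14 against day 5 at the anastomosis was run on simulated data with 50 changed features of each size. It recovered 22 of 50 at a log2 difference of 1, 40 at 2, 48 at 3 and 46 at 4, with 8 false calls. These counts hold for the simulated spread only and do not show how the fit performs on the real samples, whose same-numbered members deviated together.

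Named genes were the 14 largest differences in each direction among features past the threshold, filled from those with an unadjusted p under 0.01, no overlap and 1 direction in all numbers; for each of 37 lists, members past the threshold or the 2 smallest p-values; and fixed tissue and graft-site genes. Others are said to be chosen after their values were seen. The samples, lists and rules were chosen with earlier results of these data known. P-values set a difference against the spread between samples that the fit leaves. Without a block that spread also holds differences in protocol version, scan and slide. Precision is limited by the number of arrays, and for dim probes also by values near the floor. Alternatives were the background correction, normalisation, probe filter, probe choice, blocks, the deposited table and each sample left out.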

Additional observations from a re-analysis of the deposited data

Results flagged for a closer look

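In 5 groups of 4 samples, out of 102 examined, the highest or lowest sample lay farther from its neighbour than Dixon's limit for the group's range allows. Chance gives about 1 in 20. CCL21 at day 5 was 7.52 in replicate 3 against 6.23 to 6.39 in the others. CCL20 at day 14 was 7.82 in replicate 4 against 6.74 to 6.83. IL6 at day 5 was 14.21 in replicate 4 against 16.13 to 16.23, and at day 14 it was 14.07 in replicate 3 against 13.35 to 13.48. CCNB1 at day 5 was 12.37 in replicate 1 with the other 3 at 12.14.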

How the results depend on the processing

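The count of 2 features past the threshold became 0 with the scanner's processed signal and in either pair of replicate numbers (1 and 2, or 3 and 4) fitted by itself; 1 without background correction, with quantile scaling or equal medians of the red channel, with median centring, and with the filter over the 8 samples. It became 4 with the protocol version, 7 with the replicate block, 20 with scan as a random block, 17 with all 24 samples in the fit, 3054 with the deposited table and 487 with that table and the block, an alternative chosen after seeing the data. Leaving out 1 sample, or a number on both days, gave 0 to 2: it gave 0 without any one whole number, without replicate 1, 2 or 3 of day 5 and without replicate 3 of day 14, 1 without replicate 2 of day 14, and 2 without each of the other 3 samples; CCBE1 passed in none of these 12 fits. Slide as a random block could not be fitted, since 1 slide alone held 2 arrays of this site. Against the jugular control, leaving out a replicate number gave 0 to 1 features (1 without replicate 1), and against the downstream vein 0. The endoplasmic reticulum median was -0.70 in the deposited table with and without the block and -0.74 in replicates 1 and 2; that of antigen presentation was 0.76 with the mean of a gene's probes and 0.50 to 0.71 without single samples or numbers; that of quiescent fibroblast genes was 0.49 in replicates 3 and 4. SPP1 turned to -1.50 in the deposited table with and without the block, and ran from -0.53 to 1.11 without single samples or numbers. CXCL14 turned to 0.03 there, with and without the block, to 0.22 with scan as a random block, to 0.76 in replicates 3 and 4, and ran from -0.75 to 0.14 without single samples or numbers. The cause was not tested. In the scanner values the replicate block ended the call of CCBE1, added those of 6 IgG probes and changed no other. Values near the floor of the array limit what dim probes can show.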
